A study of Mus musculus with 23 samples.

Results

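The genes described here are 10 members of the Bcl2 family, which control whether a cell undergoes mitochondrial apoptosis, among 47643 gene identifiers measured in PyMT mammary tumors. They are the copies Bcl2a1a, Bcl2a1b and Bcl2a1d, the survival genes Bcl2, Bcl2l1 and Mcl1, the pore formers Bax and Bak1, and the death-inducing BH3-only genes Bcl2l11 and Bbc3. They were chosen by name because Bcl2a1b was far lower in these data after blockade of the γδ T cell receptor (γδTCR), and the reads of the Bcl2a1 copies were also summed. The values of that contrast therefore chose the members and are given as a description, with no test. Counts of calls under other processing are listed at the end, and nothing is read from them. All groups were female mice that carry the PyMT oncogene, whose expression is driven in the mammary epithelium, on a C57BL/6 background, with the knockout made on C57BL/6N. In the neutralization experiment, WT mice received an IgG1 isotype control (5 tumors) or an antibody to IL-38 (6 tumors), weekly for 5 weeks once the first tumor had grown to 0.6 cm. In the γδTCR experiment, treatment began at 13 weeks of age and also ran weekly for 5 weeks. WT mice received IgG (4 tumors), and IL-38 KO mice, which lack this cytokine of the interleukin-1 family, received IgG (4 tumors) or an antibody to the γδTCR (4 tumors). No WT group received the γδTCR antibody, so its values are known only on the IL-38 KO background.

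Bcl2 family proteins meet at the mitochondrial outer membrane. Bax and Bak1 form the pores that release cytochrome c, the survival proteins hold them and the BH3-only proteins in check, and BH3-only proteins such as Bim (Bcl2l11) and Puma (Bbc3) free or activate the pore formers. Bcl2a1, also called A1, is the survival protein best known from hematopoietic cells, where inflammatory signals induce it through NF-κB, and mice carry it in several nearly identical copies. Mcl1 is a short-lived survival protein that many cell types need, among them neutrophils, whereas Bcl2l1 (Bcl-xL) is widely expressed, including in epithelium.

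The copies are so alike that the few bases at which they differ decide which copy a read is counted for. All lie on chromosome 9. In the GENCODE M21 annotation, the coding sequences of Bcl2a1a, Bcl2a1b and Bcl2a1d are each 519 bases long and 97.9% to 98.8% identical in pairs. The last 165 coding bases of each copy, from base 355 to base 519 of its coding sequence, are shown because reads of a 3′ method come from near this end. Capitals mark the 3 positions at which the copies differ in this stretch.
Bcl2a1a: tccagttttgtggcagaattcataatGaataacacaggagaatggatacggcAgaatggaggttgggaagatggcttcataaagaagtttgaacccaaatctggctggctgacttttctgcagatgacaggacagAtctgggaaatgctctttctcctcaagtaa
Bcl2a1b: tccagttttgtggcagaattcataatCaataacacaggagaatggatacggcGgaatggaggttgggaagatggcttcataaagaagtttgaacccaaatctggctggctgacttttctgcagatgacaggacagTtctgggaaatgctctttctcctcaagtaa
Bcl2a1d: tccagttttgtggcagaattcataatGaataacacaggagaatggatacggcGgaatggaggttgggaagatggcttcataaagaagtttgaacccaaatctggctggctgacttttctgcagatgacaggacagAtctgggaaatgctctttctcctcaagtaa

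Of the 226 windows of 75 bases, the length of a read here, in the last 300 bases of each transcript, 114 (50.4%) were found only in Bcl2a1a and 90 (39.8%) only in Bcl2a1b. For Bcl2a1d the number was 13 (5.75%), because 112 of its windows also occur in Bcl2a1a and 136 in Bcl2a1b. The split of reads between the copies is therefore uncertain, most of all for Bcl2a1d, and the sum is given beside them. How reads shared by the copies were counted is not known. If such reads were left out, they are missing from the sum too. Gene model Gm29094 shares a first exon with Bcl2a1b on the same strand and had at most 10 reads in any library.

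The promoters of the 2 copies that gave nearly all reads are shown. Each stretch is the 250 bases before the start of transcription in RefSeq (GRCm38.p6), at chr9:88956670-88956919 on the plus strand for Bcl2a1a and at chr9:89199023-89199272 on the plus strand for Bcl2a1b. Capitals mark TGANTCA, the AP-1 motif, and GAGGAAGT, an ETS motif of the type bound by the myeloid factor PU.1, which do not overlap each other.
Bcl2a1a promoter: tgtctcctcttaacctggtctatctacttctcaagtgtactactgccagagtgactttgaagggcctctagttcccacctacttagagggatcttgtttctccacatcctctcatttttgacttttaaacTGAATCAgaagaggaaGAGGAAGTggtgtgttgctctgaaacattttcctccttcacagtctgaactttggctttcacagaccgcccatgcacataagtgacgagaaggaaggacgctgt
Bcl2a1b promoter: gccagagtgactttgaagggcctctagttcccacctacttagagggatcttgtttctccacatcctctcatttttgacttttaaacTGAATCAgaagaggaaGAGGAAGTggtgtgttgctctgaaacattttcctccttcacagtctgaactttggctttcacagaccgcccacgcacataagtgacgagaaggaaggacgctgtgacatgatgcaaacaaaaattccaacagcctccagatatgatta

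The windows of 300 bases from which these stretches were taken, which run on past the start, were 99.2% identical over 256 aligned bases. Searched on both strands, GAGGAAGT was present in 3 of 3 promoters of the Bcl2a1 copies and in 3.2% of 32851 mouse promoters of the same length. TGANTCA was present in the same 3 and in 7.81% of all promoters. Among the 15 annotated promoters of the 10 members, 4 held the first motif and 3 the second. These matches are letters in near-identical sequences, not evidence that a factor binds.

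Before the values, 1 library has to be set apart. Replicate 4 of the IL-38 KO + IgG tumors stood with the 4 IL-38 KO + anti-γδTCR tumors and not with the other 3 of its group. Processed pseudogenes took 1.46% of its reads, against 1.31% to 1.98% in the anti-γδTCR libraries and 0.0943% to 0.191% in the other 18. Gm42418, a gene model that picks up ribosomal RNA reads, took 11.3%, against 11.6% to 20.1% and 2.62% to 5.70%. These 5 libraries also held fewer reads (6273049 to 8794202 against 10138353 to 15879164), and the column names of the tables number them consecutively after the other 18. The γδTCR antibody therefore cannot be told apart from whatever distinguishes these 5 libraries, except through replicate 4 itself, and each result that rests on replicate 4 is given with and without it. Il1f10, which encodes IL-38, had 0 reads in all 23 libraries and could not check the genotypes. Epcam, of the mammary epithelium, had 219.6 to 1045 CPM (reads normalized to the library's total on genes) in every library, whereas T cell markers were near the limit of detection, with Cd3d at 0 to 4.84 CPM.

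Bcl2a1b, the copy for which the family was chosen, was lowest after γδTCR blockade in all 4 tumors. Its level was 28.4, 18.8, 16.6, 18.01 and 25.7 CPM in the isotype control tumors, and 15.5, 16.9 and 23.3 CPM at the lowest, the median and the highest of the 6 anti-IL-38 tumors. It was 18.01, 14.7, 14.8 and 11.8 CPM in WT + IgG tumors and 10.7, 13.3, 16.1 and 3.36 CPM in IL-38 KO + IgG tumors. In the IL-38 KO + anti-γδTCR tumors it was 0.499, 0.934, 0.319 and 1.48 CPM, which are 4, 8, 2 and 13 reads. The anti-γδTCR tumors did not overlap any other group, and the IL-38 KO + IgG value nearest to them was that of replicate 4, with 29 reads.

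Bcl2a1a was also low in these libraries but did not separate the groups. It ranged from 11.3 to 17.5 CPM with the isotype control, from 5.54 to 13.5 CPM with anti-IL-38 and from 6.94 to 12.3 CPM in WT + IgG tumors. IL-38 KO + IgG tumors had 6.02, 5.86, 11.1 and 1.16 CPM, and IL-38 KO + anti-γδTCR tumors 1.75, 1.52, 1.12 and 1.25 CPM. Replicate 4 of the IgG group, with 10 reads, thus lay within the range of the blockade tumors, which had 7 to 14 reads.

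Bcl2a1d was hardly counted, with 0 to 12 reads per library and 0 to 1.08 CPM, and did not reach the mean normalized count of 5 that a gene needed to be compared. The copy Bcl2a1c, which is no member, had 3 reads in IL-38 KO + IgG replicate 3 and 0 in the other 22 libraries, where a count of 0 allows up to 3 reads. Bcl2a1d thus added at most 12 reads to the sum of a library, and Bcl2a1c was left out of it.

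The summed copies gave an order of the groups from 35.2 ± 7.05 CPM (SD, n = 5) with the isotype control through 28.3 ± 5.48 (n = 6) with anti-IL-38, 25.1 ± 4.25 (n = 4) in WT + IgG and 17.1 ± 9.47 (n = 4) in IL-38 KO + IgG to 2.31 ± 0.538 (n = 4) after γδTCR blockade. Each of the first 4 groups overlapped its neighbour in this order. The last pair did not overlap, with a lowest value of 4.64 CPM in IL-38 KO + IgG tumors, that of replicate 4, and a highest of 2.84 CPM after blockade.

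**Figure D1:**
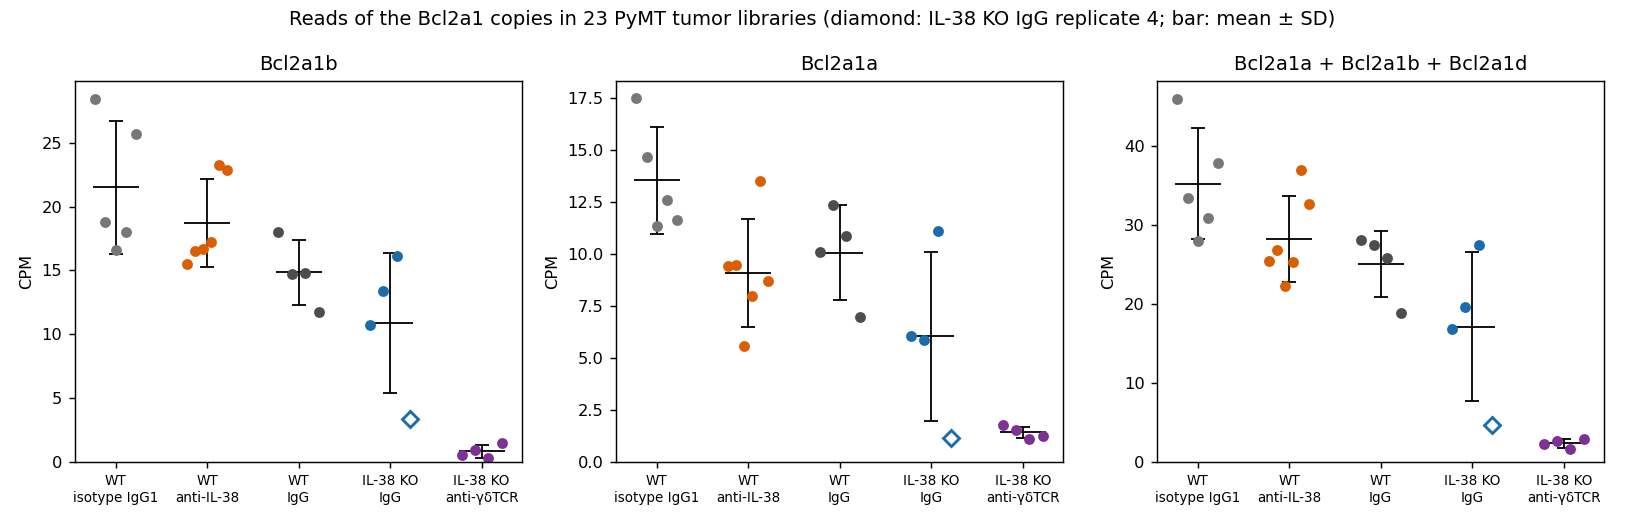
Level of Bcl2a1b, Bcl2a1a and the summed copies in CPM (y axis) in each of the 23 libraries by group, with the mean and SD as bars and IL-38 KO + IgG replicate 4 as an open diamond. The anti-γδTCR tumors lie between 1.59 and 2.84 CPM for the sum, and the diamond, at 4.64 CPM, lies nearer to them than to the 16.8 CPM of the next tumor of its group.

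The division of the reads between the copies varied outside the blockade group too, between some libraries beyond counting error. The exact 95% binomial interval of the Bcl2a1b share was 69.2% to 79.7% in anti-IL-38 replicate 3 and 48.2% to 58.8% in WT + IgG replicate 2. Bcl2a1b took 53.5% to 74.7% of the reads of the copies in the 18 other libraries, with group medians between 59.3% and 65.9% when replicate 4 is counted with its group. In replicate 4 it took 72.5% of 40 reads (exact 95% binomial interval 56.1% to 85.4%). After γδTCR blockade it took 22.2% of 18 reads (6.41% to 47.6%), 36.4% of 22 (17.2% to 59.3%), 20% of 10 (2.52% to 55.6%) and 52% of 25 (31.3% to 72.2%). These intervals cover counting error only, and those of the tumors with 22, 10 and 25 reads reach into the range of the other libraries. The share uses the contrast by which the gene was chosen and was not tested.

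**Figure D2:**
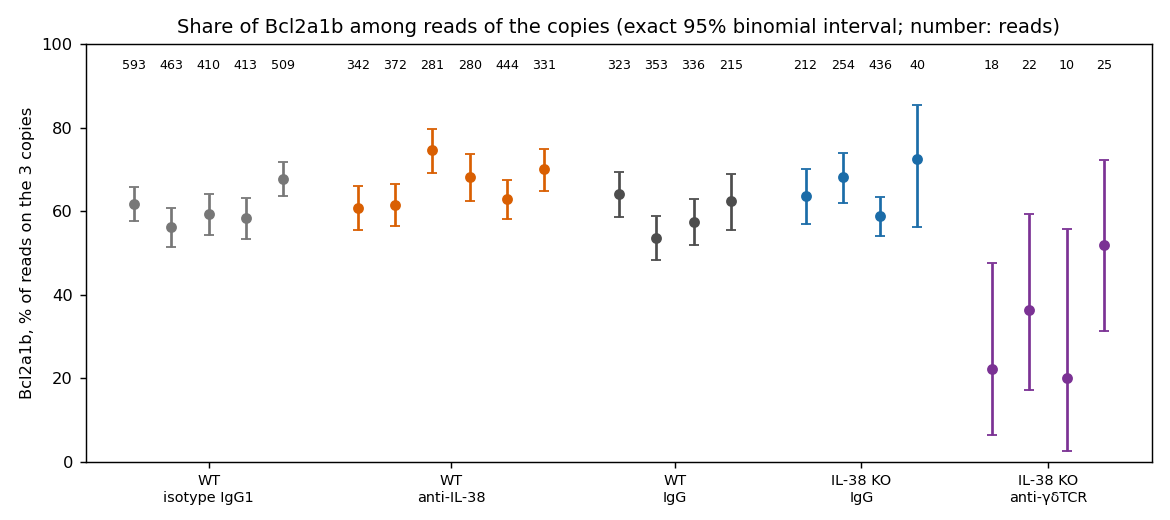
Share of Bcl2a1b among the reads of Bcl2a1a, Bcl2a1b and Bcl2a1d (y axis, percent) in each library by group, with exact 95% binomial intervals as bars and the number of reads printed above. The 4 anti-γδTCR libraries, with 10 to 25 reads, lie at 20% to 52%, and IL-38 KO + IgG replicate 4, with 40 reads, lies at 72.5%.

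Among the other survival genes, Mcl1 and Bcl2l1 moved in opposite directions in the 5 libraries set apart, and Bcl2 did neither. Mcl1 had 116, 139, 123 and 123 CPM after blockade and 138 CPM in replicate 4, against 225 to 400.2 CPM in the other 18 libraries. Bcl2l1 had 88.4, 110.1, 102 and 109 CPM after blockade and 85.7 CPM in replicate 4, against 30.1 to 68.1 CPM. Both genes thus put replicate 4 with, or next to, the blockade tumors. Bcl2 had 99.2 to 216 CPM after blockade, 141 CPM in replicate 4 and 49.2 to 168 CPM in the rest, so that all ranges overlapped.

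The BH3-only genes also went different ways. Bbc3, a p53 target that encodes Puma, had 138, 125, 172 and 106 CPM after blockade and 138 CPM in replicate 4, against 17.4 to 37.8 CPM in the other 18 libraries. Replicate 4 lay inside the range of the blockade tumors, and the remaining IL-38 KO + IgG tumors had 17.4, 22.1 and 33.6 CPM, against 22.7 to 37.8 CPM in the 3 WT groups. Bcl2l11, which encodes Bim, behaved otherwise. It had 69.2, 63.5, 48.9 and 50.6 CPM after blockade and 97.4 CPM in replicate 4, which stayed with the 80.0 to 131 CPM of the other 18 libraries. In Bcl2l11, as in the share of Bcl2a1b among the copies, replicate 4 thus stood with its labelled group.

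The pore formers showed less. Bax had 5.99, 9.93, 15.8 and 14.1 CPM after blockade, against 13.9, 23.3, 21.2 and 17.6 CPM in IL-38 KO + IgG tumors, and the groups overlapped. Bak1 ranged from 29.9 to 33.5 CPM after blockade and from 29.5 to 45.9 CPM in IL-38 KO + IgG tumors, with replicate 4 at the low end of the latter.

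**Figure D3:**
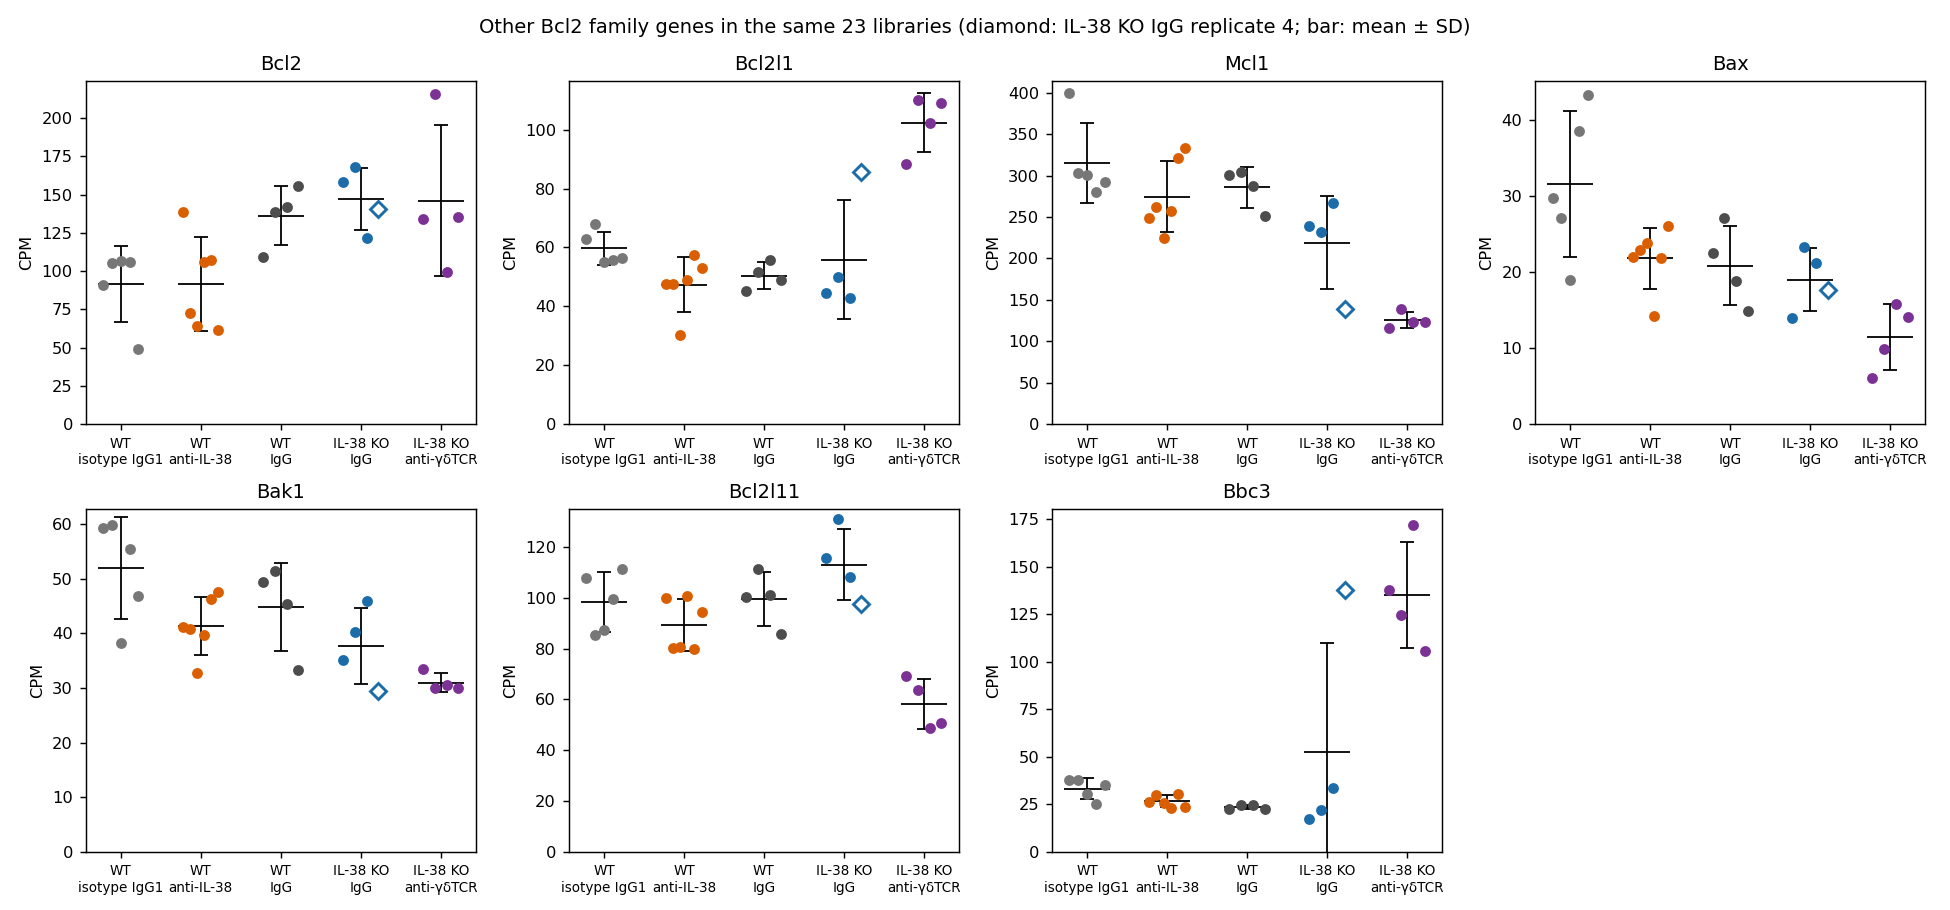
Levels of the 7 other members in CPM (y axis) in each of the 23 libraries by group, with mean and SD as bars (the lower end of the bar of Bbc3 in IL-38 KO + IgG lies below 0 and is not drawn) and IL-38 KO + IgG replicate 4 as an open diamond. The diamond lies with the anti-γδTCR tumors for Bbc3 (138 CPM) and near them for Mcl1 and Bcl2l1, but with the other IL-38 KO + IgG tumors for Bcl2l11 (97.4 CPM).

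In the comparison that chose the genes, IL-38 KO + anti-γδTCR against IL-38 KO + IgG tumors (4 versus 4), the log2 difference of normalized counts was −3.41 (SE 0.54) for Bcl2a1b, −1.51 (SE 0.58) for Bcl2a1a and −2.44 (SE 0.47) for the sum. Without replicate 4 these values were −3.87, −2.13 and −2.95. Bbc3 was higher by 2.04 (SE 0.56; 2.69 without replicate 4) and Bcl2l1 by 1.11 (SE 0.23; 1.35 without it). Bcl2l11 differed by −0.79 (SE 0.15; −0.84 without it), Mcl1 by −0.59 (SE 0.19; −0.78 without it), Bax by −0.62 (SE 0.31), Bak1 by −0.09 (SE 0.16) and Bcl2 by 0.12 (SE 0.19). These are values on the log2(normalized count + 1) scale, which understates the difference of Bcl2a1b at 2 to 13 reads.

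In this comparison the groups did not overlap for 3 members (Bcl2a1b and Bcl2l11 lower, Bcl2l1 higher) and for 9.54% of the 16481 genes compared, with 4.57% higher and 4.98% lower. With all libraries limma called 0% of these genes at an adjusted p of 0.05, and without replicate 4 it called 14.3%. Since the members were chosen on this contrast, no call is given for them here and nothing is read from these shares.

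On IL-38 neutralization, which the choice of genes did not use, 8 of the 9 members compared were lower with anti-IL-38 (6 versus 5 tumors), by amounts within the spread of the tumors. 0 members passed an adjusted p of 0.05 in limma, as did 0% of 16002 genes; 2 of the 9 (Bcl2a1a and Bcl2l1) and 10.5% of all genes had an unadjusted p under 0.05. The median log2 fold change was −0.27 over the members and 0.00 over all genes. No member separated the groups, as 1.04% of all genes did. Bcl2a1a differed by −0.55 (SE 0.19, adjusted p = 0.421 in limma), from 13.5 ± 2.56 CPM (SD, n = 5) to 9.09 ± 2.60 (n = 6). Bcl2a1b differed by only −0.14 (SE 0.17, adjusted p = 0.786), and the sum of the copies by −0.27 (SE 0.15, adjusted p = 0.530).

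The other members gave values of the same order. Bax differed by −0.45 (SE 0.21, adjusted p = 0.481 in limma), Bcl2l1 by −0.30 (SE 0.13, adjusted p = 0.460), Bbc3 by −0.27 (SE 0.14, adjusted p = 0.509) and Bak1 by −0.27 (SE 0.13, adjusted p = 0.481). Mcl1 differed by −0.15, Bcl2l11 by −0.09 and Bcl2 by 0.04. The groups of each of these genes overlapped.

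Between IL-38 KO and WT tumors, both with IgG (4 versus 4), the difference of the Bcl2a1 copies rested on replicate 4. This comparison shares its 4 IL-38 KO + IgG libraries with that of γδTCR blockade, where they are the controls, so a low value of replicate 4 lowers the KO level in both. With all libraries, Bcl2a1a differed by −1.04 (SE 0.54, adjusted p = 0.454 in limma), Bcl2a1b by −0.61 (SE 0.40, adjusted p = 0.548) and the sum by −0.76 (SE 0.43, adjusted p = 0.486). Without replicate 4 the values were −0.41, −0.14 and −0.23 (SE 0.21, adjusted p = 0.661 for the sum).

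Bbc3 differed by 0.65 (SE 0.51) with replicate 4 and by 0.01 (SE 0.21) without it, and Bcl2l1 by 0.12 and −0.12. Mcl1 differed by −0.40 (SE 0.19, adjusted p = 0.429 in limma; −0.20 without replicate 4), Bcl2l11 by 0.21, Bcl2 by 0.14, Bak1 by −0.22 and Bax by −0.10. 0 of the 9 members passed an adjusted p of 0.05 with or without replicate 4, and 0 had an unadjusted p under 0.05, against 0.00604% of 16563 genes called (0.0431% without replicate 4) and 12.1% with an unadjusted p under 0.05. Neither edgeR nor DESeq2 called a member here or on neutralization. No member separated the groups, as 7.06% of genes did.

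**Figure D4:**
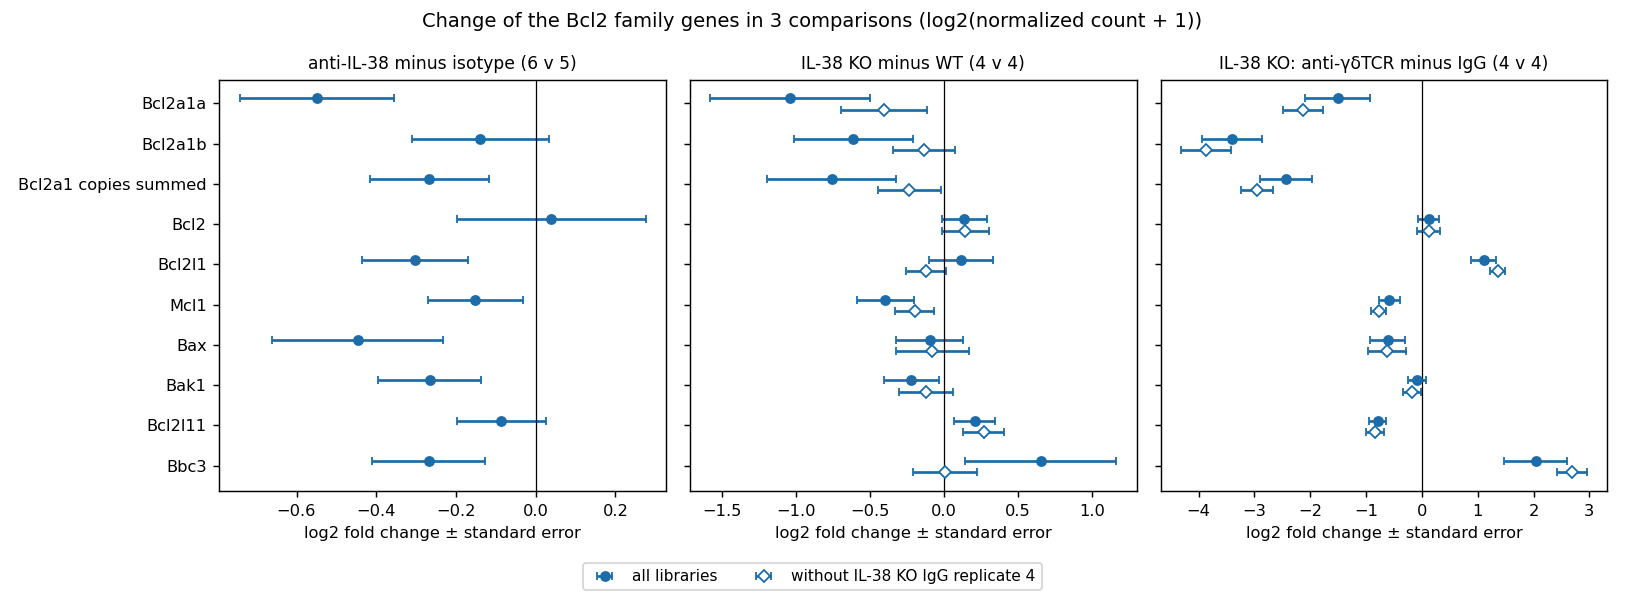
Log2 fold change with its standard error (x axis) of 9 members and of the summed Bcl2a1 copies on anti-IL-38, in IL-38 KO against WT and on γδTCR blockade, with all libraries (filled circles) and without IL-38 KO + IgG replicate 4 (open diamonds). Without it, the values of the copies and of Bbc3 in IL-38 KO against WT move toward 0, from −0.76 to −0.23 for the sum and from 0.65 to 0.01 for Bbc3, and those on blockade move away from 0.

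With antibody and knockout tumors pooled against their controls (10 versus 9 tumors, the same libraries as in the 2 comparisons before), the sum of the copies differed by −0.44 (SE 0.28, adjusted p = 0.577 in limma) and Bcl2a1a by −0.72 (SE 0.32, adjusted p = 0.439; −0.44 without replicate 4). 0 of 9 members and 0% of 16352 genes were called. The log2 fold change of the sum was less negative with the antibody than with the knockout, by 0.49 (SE 0.45), which did not pass limma's interaction test (adjusted p = 0.802). Without replicate 4 this difference was −0.033. The adjusted p of the other members in this test ranged from 0.717 to 0.976, with 0.00612% of all genes called.

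The 16 other Bcl2 family genes were compared in the same way. Bnip3, a hypoxia-induced mitophagy gene, differed by −0.62 on anti-IL-38 (adjusted p = 0.432 in limma), Bcl2l14 by 0.67 (adjusted p = 0.432) and the BH3-only gene Bik by 0.60 (adjusted p = 0.533). In IL-38 KO against WT tumors the leading genes were Bid, which links death receptors to mitochondria, at 0.46 (adjusted p = 0.338), Bnip3l at −0.42 (adjusted p = 0.371) and Bnip3 at −0.53 (adjusted p = 0.381). With IL-38 inhibited in either way they were Bid at 0.32 (adjusted p = 0.407), Bnip3 at −0.55 (adjusted p = 0.422) and the survival gene Bcl2l2 at 0.30 (adjusted p = 0.457). Of 12, 13 and 12 genes of the list that were compared, 0 were called in each case, and 8, 4 and 7 were higher.

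On γδTCR blockade, given as a description, Bik was higher by 1.23 (1.36 without replicate 4), Bid lower by 0.94 (−0.98 without it) and the BH3-only gene Pmaip1 (Noxa) lower by 0.76. Of 12 genes compared, 4 were higher and 8 lower, with a median of −0.17 against 0.02 over all genes. The groups of Bik and Bid did not overlap.

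Of the 21 genes of the caspase and IAP machinery, which carries out or restrains the steps after the mitochondrial pore, 21 were compared, and 0 were called on anti-IL-38, in IL-38 KO or with both inhibitions together. On anti-IL-38, Birc5 (survivin, a gene of dividing cells) differed by −0.63 (SE 0.17, adjusted p = 0.376 in limma), with every anti-IL-38 tumor below every control. Diablo, an inhibitor of IAPs, differed by 0.25 (adjusted p = 0.463) and Vdac2, a channel of the outer membrane, by −0.23 (adjusted p = 0.473). In IL-38 KO tumors the initiator caspase Casp8 differed by −0.44 (SE 0.13, adjusted p = 0.257) without overlap of the groups, and Endog by −0.53 (adjusted p = 0.406). With IL-38 inhibited in either way, Casp8 differed by −0.33 (adjusted p = 0.357 in limma) and Cycs, which encodes cytochrome c, by −0.27 (adjusted p = 0.445). On blockade, as a description, Endog differed by 0.54 and Vdac2 by −0.53, and 7 of the 21 genes were higher.

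Genes regulated by the pathways that act on this family were set beside it. Of 15 NF-κB target genes, 9 were higher on anti-IL-38 and 5 in IL-38 KO, and 0 were called. On blockade 9 were higher and 6 lower, with or without replicate 4, with a median of 0.17 against 0.02 over all genes. Nfkbia, the inhibitor that NF-κB induces, had 344 to 419 CPM after blockade, 345 CPM at most in IL-38 KO + IgG tumors and 185 to 348 CPM in the 3 WT groups, and Nfkbie had 1.86 to 7.10 CPM throughout. The chemokine gene Ccl3, singled out after its values were seen, had 0.319 to 2.92 CPM after blockade and 1.04 CPM at the lowest of the IL-38 KO + IgG tumors, against 12.3 to 28.8 CPM in the WT groups. Il1b and Cd83, also singled out after their values were seen, went the other way. Il1b had 38.8 to 80.5 CPM after blockade and at most 40.1 CPM in IL-38 KO + IgG tumors. It had 2.31 to 28.1 CPM in the WT groups. Cd83 had 38.3 to 57.2, at most 53.2 and 6.49 to 14.99 CPM in the same order. The 15 genes summed to 613 to 654 CPM after blockade and 590 CPM in replicate 4. The sums were 366 to 439 CPM in the other IL-38 KO + IgG tumors and 321 to 513 CPM in the WT groups. Members of the list thus went different ways. Of 15 p53 target genes, 9 were higher on anti-IL-38 and 7 in IL-38 KO, with 0 called, and 5 were higher on blockade. Cdkn1a had 48.9 to 83.3 CPM after blockade and 67.4 CPM at the lowest of the IL-38 KO + IgG tumors, against 251 to 591 CPM in the WT groups. Mdm2 had 39.7 to 65.2 CPM after blockade and 54.2 to 104 CPM elsewhere. Cdkn1a was thus low in the libraries in which Bbc3 was high, and the ranges of Mdm2 overlapped.

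In bulk tumors, fewer cells of a type and less RNA per cell cannot be told apart, and markers of macrophages moved with the Bcl2a1 copies. The summed level of 12 macrophage markers was 1258 to 2064 CPM after blockade and 1860 CPM in IL-38 KO + IgG replicate 4, against 8135 to 11445 CPM in the other 3 tumors of that group and 9065 to 20665 CPM in the WT groups. Adgre1 (F4/80) had 16.4 to 34.8 CPM after blockade and 37.1 CPM at the lowest of the IL-38 KO + IgG tumors, against 80.5 to 142 CPM in the WT groups, and Cd68 had 21.1 to 42.5, 43.7 and 197 to 450 CPM. None of the defining markers Adgre1 and Cd68 was at 0 in any library. On blockade 9 of the 12 were lower (10 without replicate 4), in IL-38 KO 11 and on anti-IL-38 7. Lyz2, the lysozyme gene, made up 69.7% to 80.2% of the sum in the 18 other libraries (5801 to 16563 CPM), 26.5% in replicate 4 (494 CPM) and 5.11% to 18.02% after blockade (82.6 to 372 CPM). The other 11 markers summed to 2335 to 4145 CPM in the 18 libraries, 1367 CPM in replicate 4 and 1054 to 1692 CPM after blockade. The part of these markers in the levels of Bcl2a1 was not tested.

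The level of the copies per 1000 CPM of macrophage markers depended on whether Lyz2 was counted. With all 12 markers, the summed copies had 1.91 to 2.60 CPM per 1000 in the 18 other libraries, 2.49 in replicate 4 and 1.27 to 1.74 after blockade. Without Lyz2, a choice made after the values were seen, they had 6.87 to 11.2, 3.40 and 1.51 to 1.87. For the sum, replicate 4 thus lay within the range of the 18 libraries with Lyz2 and below it without. Bcl2a1b had 1.02 to 1.61, 1.81 and 0.254 to 0.716 with Lyz2, and 4.03 to 7.21, 2.46 and 0.303 to 0.874 without it. Bcl2a1a had 0.536 to 0.968, 0.624 and 0.606 to 1.35 with Lyz2, and 2.05 to 4.26, 0.849 and 0.739 to 1.45 without it. The blockade tumors were the lowest for Bcl2a1b on both scales, and for Bcl2a1a they overlapped the 18 libraries with Lyz2 and lay below them without it.

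**Figure D5:**
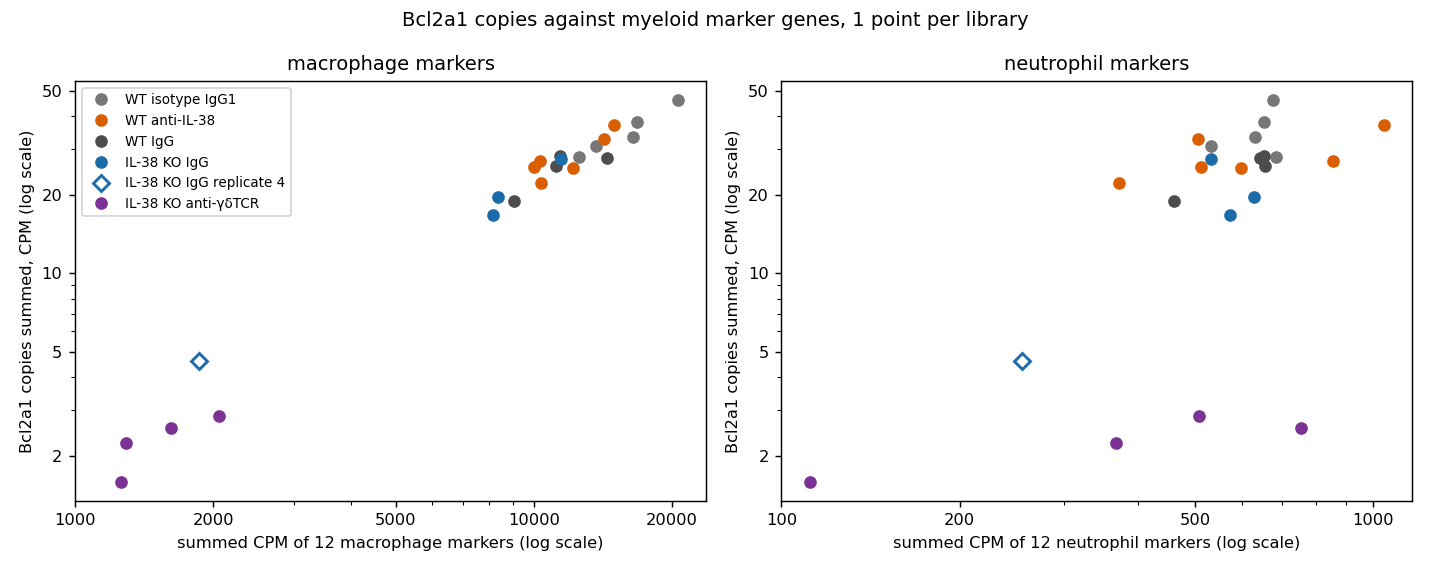
Summed Bcl2a1 copies in CPM (y axis, log scale) against the summed CPM of 12 macrophage markers (left) and of 12 neutrophil markers (right; x axes, log scale), 1 point per library, with IL-38 KO + IgG replicate 4 as an open diamond. On the left the libraries form 2 clusters, 1 of 18 libraries from 8135 CPM up and 1 of 5 libraries from 1258 to 2064 CPM; on the right the anti-γδTCR tumors, from 112 to 755 CPM, span most of the range of the others.

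Neutrophils also use Bcl2a1 and Mcl1, and their markers went different ways. The 12 neutrophil markers summed to 112 to 755 CPM after blockade, 255 CPM in replicate 4 and 372 to 1042 CPM in the other 18 libraries. S100a8 had 4.94 to 31.2 CPM after blockade and 17.5 to 162 CPM elsewhere, and S100a9 0.250 to 4.32 and 1.39 to 9.82 CPM. Of the genes that made up most of the sum, singled out after their values were seen, Mmp8, a collagenase of neutrophils, had 0 reads in 3 blockade tumors and 5.57 CPM in the other. It had 7.31 CPM at the lowest of the IL-38 KO + IgG tumors, that of replicate 4, and 225 to 574 CPM in the WT groups. Ltf (lactoferrin), which mammary epithelium also makes, had 101 to 716 CPM after blockade, 209 to 394 CPM in IL-38 KO + IgG tumors and 13.3 to 613 CPM in the WT groups. Mmp8 was thus low in the same 5 libraries as Bcl2a1, whereas the ranges of Ltf overlapped. Ly6g had 0 to 5 reads per library and Cxcr2 0 to 15, near the limit of detection in every group. Neither Mmp8 nor the sum is therefore read as a level of neutrophils. On blockade 6 of the 8 markers compared were lower, on anti-IL-38 9 of 10 and in IL-38 KO 4 of 9, and 0 were called in the last 2 comparisons. The part of neutrophils was not tested.

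The sum of the dendritic cell list was also low in the 5 libraries low in Bcl2a1, but its genes went different ways. On blockade 4 of the 7 markers compared were lower and 3 higher. Zbtb46, singled out after its values were seen, had 5.74 to 9.24 CPM after blockade. It had 5.29 to 6.73 CPM in IL-38 KO + IgG tumors and 2.60 to 10.4 CPM in the WT groups. The 8 dendritic cell markers summed to 28.5 to 38.9 CPM after blockade, 42.9 CPM in replicate 4 and 195 to 504 CPM in the other libraries. Itgax, which macrophages also express, made up most of this sum, with 18.3 to 23.4 CPM after blockade, 30.2 CPM at the lowest of the IL-38 KO + IgG tumors and 202 to 478 CPM in the WT groups. Batf3, a transcription factor of dendritic cells singled out after its values were seen, had 1.02 to 2.25, 1.16 and 5.62 to 12.1 CPM, whereas Flt3 (0 to 3.78 CPM) and Xcr1 (0 to 1.52 CPM), which define dendritic cells, were near the limit of detection throughout. The part of dendritic cells was not tested. The 8 mast cell markers, with Kit, which epithelium also expresses, summed to 112 to 329 CPM after blockade and 90.1 to 244 CPM elsewhere, and Cpa3 was at 0 in 4 libraries of IL-38 KO mice. T and NK cell markers summed to 13.9 to 22.3 CPM after blockade and 2.3 to 31.3 CPM elsewhere. Of the 11 compared, 11 were higher on anti-IL-38 and 1 in IL-38 KO, with 0 called, and 11 were higher on blockade. Mammary epithelial markers summed to 2758 to 3585 CPM after blockade and 1472 to 3925 CPM elsewhere, so that the libraries low in Bcl2a1 were not low in epithelial markers. Krt8 had 56.8 to 145 CPM after blockade and 66.9 to 328 CPM elsewhere.

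The lists for the remaining tissues gave no call on anti-IL-38 or in IL-38 KO. Of the 6 skeletal muscle markers, 6 were higher in each of the 3 comparisons, with a median of 1.93 in IL-38 KO and 1.46 on blockade, and Acta1 ranged from 0.348 to 267 CPM and Ckm from 0 to 25.7 CPM. Of the 6 adipocyte markers, 6 were lower in IL-38 KO, 4 on blockade and 3 on anti-IL-38, with Adipoq at 0.317 to 51.4 CPM and Fabp4 at 8.13 to 149 CPM. The 6 fibroblast markers were higher for 6, 4 and 4 genes on anti-IL-38, in IL-38 KO and on blockade, and the 6 endothelial markers likewise for 6, 4 and 4. Col1a1 had at least 383 CPM, Col1a2 504, Pecam1 16.2 and Cdh5 5.96 CPM in every library. The B cell gene Ms4a1 had 0 to 0.263 CPM.

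Macrophage genes were among those most like the summed copies in their pattern. Because the 23 libraries fell into 2 clusters, likeness is given over the 18 libraries of the larger cluster, as Pearson's r of log2(CPM + 1) among 14688 genes; these libraries share their sequencing and differ in depth, and the values are a description. The 5 genes with the highest r were Plek (0.971), Esd (0.961), Mmp12 (0.961), Myo1f (0.960) and Gpx1 (0.955), of which Mmp12 encodes the macrophage elastase and Plek a protein of platelets and leukocytes. Over all 23 libraries the 5 most alike were Itgax, Fcer1g, Prdx1, Ly9 and Laptm5, and after the mean of each group was removed they were Lat2, Itgax, Cd93, Cybb and Fxyd5. Itgax, which encodes CD11c, had r = 0.941 over the 18 libraries and Adgre1 0.913, whereas the neutrophil genes S100a8 and Csf3r had 0.585 and 0.227. Csf3r averaged only 1.75 CPM in these libraries, against 42.4 CPM for S100a8, so that low counts limit its r. No r is given for Mmp8.

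Among the members, Mcl1 was most like the summed copies over the 18 libraries (r = 0.858), followed by Bak1 (0.783), Bbc3 (0.780), Bax (0.672) and Bcl2l1 (0.595). Bcl2l11 had −0.149 and Bcl2 −0.554. Bbc3 and Bcl2l1 thus went with Bcl2a1 among these 18 tumors and against it in the 5 libraries set apart.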

How the data were processed

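Total RNA of dissociated PyMT tumors was converted to 23 libraries with QuantSeq 3′ mRNA FWD and run for 75 cycles, single end; the submitters' processing notes name STAR, HTSeq, DESeq2 and GRCm39, and the study's methods the BlueBee QuantSeq pipeline. The authors deposited a normalized signal per gene, not raw counts. They divided the reads of each library by 1 size factor, separately for tables of 19 and 8 libraries that share the 4 IL-38 KO + IgG libraries. Whole reads were recovered (100% of values whole within 0.0001%; in WT + IgG replicate 1 a read was worth nearly 1, so this cannot be told from rounding) and gave CPM across groups, which were not tested between tables. Totals were 6273049 to 15879164 reads. Of 47643 identifiers, 47224 had a symbol. Genes with a mean of at least 5 were compared within a table on log2(normalized count + 1) with limma 3.58.1 (eBayes with trend, two-sided, Benjamini-Hochberg over all genes, threshold 0.05, R 4.3.3), with the sum of the copies as a row of its own. Alternatives were other pseudocounts, filters and scalings, edgeR 4.0.16, DESeq2 1.42.0, a replicate block and leaving out each library. The labels do not say whether libraries of a group were separate animals, so p-values measure the spread between these libraries. The members and lists were chosen with earlier results of these data known. Genes named besides the members were up to 3 per comparison with the smallest p (on blockade the largest difference) from the family and caspase lists, the first 2 genes of each other list, and the 5 most like the summed copies. Itgax, Csf3r, Lyz2, Ccl3, Il1b, Cd83, Mmp8, Ltf, Ly6g, Cxcr2, Batf3, Zbtb46 and the 18-library likeness were chosen after values were seen. A few genes that this rule names are not reported here. Mouse sequences came from GENCODE M21 and RefSeq (GRCm38), a different build from that of the counts. On simulated counts of 15955 to 16582 genes with 200 changed 2-fold, limma recovered 170, 137, 136 and 200 (anti-IL-38, IL-38 KO, blockade, both inhibitions), with 8, 5, 4 and 5 false calls. Only well-counted genes were changed and all genes shared a single fixed dispersion. These numbers check the code and do not measure the power of the comparisons of these tumors.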

Additional observations from a re-analysis of the deposited data

Results flagged for a closer look

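In 4 of the 55 sets of values of a gene within a group, 1 tumor lay far from the rest on the log2(CPM + 1) scale, which chance alone gives in about 1 set in 20. Bcl2 in isotype control replicate 5 was 49.2 CPM, with a gap of 0.792 of the range of its group to the next tumor. Bcl2l1 in anti-IL-38 replicate 3 was 30.1 CPM (gap 0.704 of the range). Mcl1 in isotype control replicate 1 was 400.2 CPM (gap 0.775). Bax in anti-IL-38 replicate 4 was 14.2 CPM (gap 0.707). None of these sets was among those of the IL-38 KO + IgG group. In that group replicate 4 was far from the others for Bcl2a1a, Bcl2a1b, the summed copies, Bcl2l1, Mcl1 and Bbc3 without passing the limit for 4 values.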

How the results depend on the processing

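Alternatives recomputed every comparison, and 883 of the resulting values were counted as the same. Outside blockade this meant that a difference kept its direction and its side of the threshold. On blockade it meant only a shift smaller than the residual SD of the gene, whatever its sign or adjusted p. For the number of members called it meant an equal or similar count. On blockade, a count of members past the threshold is circular, and it is given only to show how it varied with the processing. It was 0 in limma with all libraries and 5 with DESeq2. On leaving out 1 library it was 0 to 6, with 6 without IL-38 KO + IgG replicate 4. Without this replicate limma called 14.3% of all 16480 genes compared, and for DESeq2 no share of all genes is given beside the count. Nothing is read from these counts, since the values of this contrast chose the members. The sum of the copies ranged from −2.95 to −2.12 there, from −1.08 to −0.23 in IL-38 KO, from −0.33 to −0.18 on anti-IL-38 and from −0.53 to −0.19 on both together. On leaving out 1 library, values near 0 changed sign: Bcl2 on anti-IL-38 (−0.17 to 0.15) and on both inhibitions (−0.075 to 0.14), Bax (−0.25 to 0.056) and Bcl2l1 (−0.12 to 0.22) in IL-38 KO, Bbc3 on both inhibitions (−0.11 to 0.22), and the gap between antibody and knockout for the sum (−0.033 to 0.81). Bbc3 on both inhibitions, this gap and Bcl2l1 in IL-38 KO changed sign only without IL-38 KO + IgG replicate 4. On blockade, Bak1 (−0.18 to 0.019) and Bcl2 (−0.064 to 0.24) also changed sign on leaving out 1 library. Same-numbered tumors did not deviate together (r = −0.169 to 0.0746). With the replicate number as a block the sum was −0.31, −0.76 and −2.44 on anti-IL-38, in IL-38 KO and on blockade, and 0 members were called on anti-IL-38 or in IL-38 KO. Itgax had r = 0.941 over 18 libraries and 0.964 with group means removed. After blockade, 2 to 13 reads per library limited Bcl2a1b.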
